A study of Mus musculus with 7 samples.

Results

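The insulin and insulin-like growth factor (IGF) signalling genes are 32 genes chosen by name: the ligands Igf1 and Igf2, 7 IGF binding proteins, 3 receptors, 4 receptor adaptors, 6 subunits of phosphoinositide 3-kinase (PI3-kinase), the kinases Pdpk1, Akt1 and Akt2, the Akt phosphatases Phlpp1 and Phlpp2, and 5 substrates of Akt. All 32 were measured, out of 19938 genes that have a probe set assigned to 1 gene symbol. The study measured RNA of pancreatic beta cells on 1-colour Affymetrix arrays in young mice that differed in when they left their mother's milk. One group of 3 mice had been weaned early, at postnatal day 18 (P18), and the other group of 4 mice was still suckling. All 7 mice were taken at P25, were of the ICR background and carried insulin-Cre with Rosa26-LSL-YFP, a reporter that makes yellow fluorescent protein once Cre has removed a stop cassette. The insulin promoter drives Cre, so the reporter marks cells that have made insulin, and the suckling controls carry the same transgenes as the weaned mice. Each array holds the RNA of 1 mouse, from 2000 to 6000 sorted cells positive for YFP.

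Insulin and the IGFs bind receptor tyrosine kinases, which phosphorylate the adaptors Irs1 and Irs2. These recruit PI3-kinase, whose lipid product brings Pdpk1 and Akt to the membrane. Active Akt inhibits the FoxO transcription factors and the kinases Gsk3a and Gsk3b, while Grb10, Grb14 and the Phlpp phosphatases restrain the chain at the receptor and at Akt. In beta cells, which secrete insulin and also carry its receptor, the pathway is known for its part in cell mass and survival.

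Values are log2 of the deposited intensity, and a difference is the weaned mean minus the suckling mean on that scale. Array replicates are named by the number in their labels, weaned 4, 5 and 12 and suckling 2, 9, 11 and 12. The labels do not say that the number 12, which both groups have, pairs animals. The array descriptions carry the code L13 for every weaned array and L14 for every suckling array, so whatever the code stands for cannot be told apart from weaning. Beta cell markers were bright in both groups, with Iapp, the islet amyloid peptide, at 12.51 in suckling and 12.48 in weaned arrays, and the mean of 12 measured beta markers lay between 9.52 and 9.66 on every array. The alpha cell hormone gene Gcg, at 12.13 in suckling and 11.95 in weaned arrays, and the delta cell hormone gene Sst, at 12.01 and 11.80, were also bright. Markers of other cell types were read against 3.27, the level below which 95% of 1027 olfactory receptor genes fell. Under it in both groups were 5 of 12 endothelial markers (Pecam1, Cdh5 and Kdr among them), 7 of 12 mesenchymal markers (with Dcn and Pdgfrb) and 6 of 11 leukocyte markers (with Ptprc), and the rest reached it in at least 1 group. Of the brighter ones, picked after their values were seen, Cldn5 of endothelium had means of 5.02 in suckling and 4.31 in weaned mice. The fibroblast collagen Col1a1 had 4.38 and 4.42. Of the 12 mesenchymal markers, 3 had higher and 9 lower means in weaned mice, with a median difference of -0.084. Rgs5 (3.26 in suckling, 2.71 in weaned mice), dim in both groups, Col1a2 (4.13 and 3.84) and Cspg4 (3.55 and 3.33) were lower without overlap. The adjusted p of these genes was 0.577, 0.649 and 0.687 in limma. Over all genes, 7.32% did not overlap in either direction. The endothelial markers had 5 higher and 7 lower, with a median of -0.041. The leukocyte genes Fcer1g (3.75 in suckling, 4.24 in weaned mice) and Tyrobp (3.12 and 3.42) were higher on every weaned array than on any suckling array. Their adjusted p was 0.457 and 0.624 in limma. Over all genes, 3.90% were higher in weaned mice without overlap. Of the 11 leukocyte markers, 5 had higher and 6 lower means in weaned mice, with a median difference of -0.073. Markers of acinar cells differed between arrays: the mean of the 16 measured markers was 3.57, 3.53 and 5.60 in weaned arrays 4, 5 and 12, and 7.29, 7.07, 3.87 and 4.46 in suckling arrays 2, 9, 11 and 12, with all 16 lower in the weaned mean. The mean of 8 ductal markers ran from 5.46 to 5.69 in weaned and from 5.72 to 6.11 in suckling arrays. Of these 8, 4 had higher and 4 lower means in weaned mice, and the largest difference was that of Tff2, -1.75. Muc1 (4.04 in suckling, 3.39 in weaned mice) was lower on every weaned array than on any suckling array, with an adjusted p of 0.552 in limma. The part of other cell types in the results below was not tested. In RNA of sorted cells, fewer cells of a type and less RNA per cell cannot be told apart.

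No gene of the pathway passed the test across all genes. With limma and Benjamini-Hochberg adjustment, 0 of the 32 genes reached an adjusted p of 0.05, against 3 of 19938 genes (0.0150%), and the lowest adjusted p in the pathway was 0.518. Before adjustment, 3 genes had a p under 0.05, Grb14, Igfbp5 and Phlpp1, or 9.38% of the pathway, beside 7.58% of all genes. All 3 had higher means in weaned mice, where the background is 4.39%. For 1 gene, Grb14, the 2 groups' values did not overlap, 3.12% of the pathway, beside 7.32% of all genes in either direction and 3.90% in the higher direction. These shares rest on 3 genes and 1 gene, and with 32 genes each gene is 3.12%. They are therefore not read as different from the background. Means of the brightest probe sets were higher in weaned mice for 15 genes and lower for 17. The 17 take in Irs1, Insr and Akt2, whose dimmer probe sets had higher means in weaned mice. Over the 32 genes, the median difference was -0.026, beside 0.00047 over all genes. The median size of a difference was 0.12, also 0.12 over all genes. Spread within groups was like that of other genes too, with a median SD of 0.18 in the pathway and 0.19 over all genes.

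**Figure D1:**
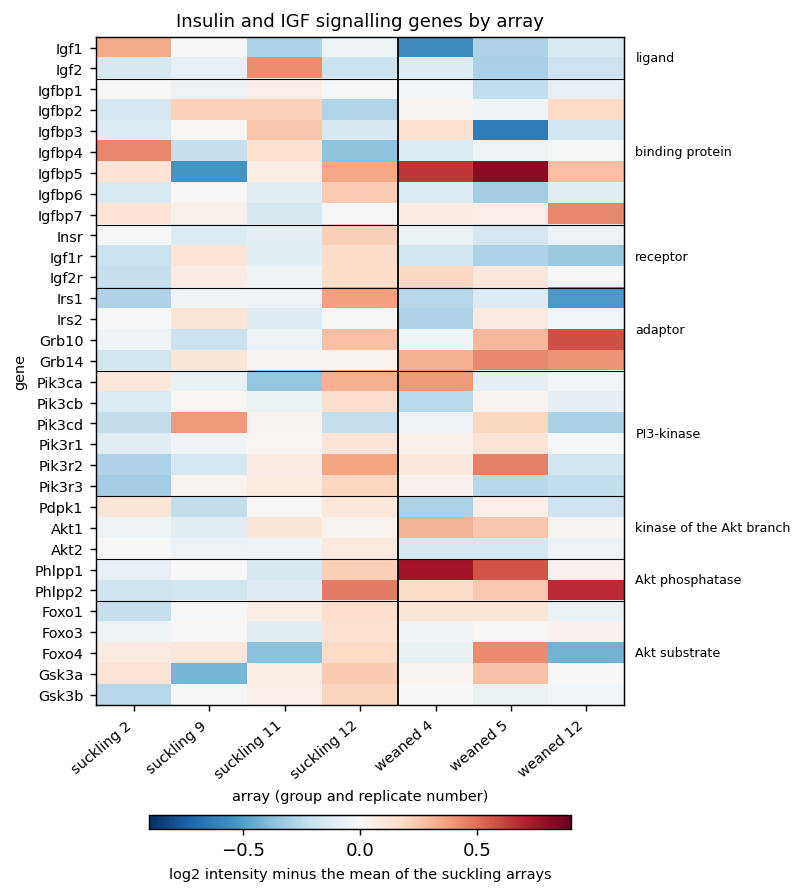
Each row is a gene of the pathway, in order of role, and each column an array; colour gives the log2 intensity minus the mean of the 4 suckling arrays. Weaned columns are warm for Igfbp5, Grb14, Phlpp1 and Phlpp2, and suckling replicate 12 is warmer than the other suckling columns in many rows.

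The array of suckling replicate 12 had the highest value of the 4 suckling arrays for 20 of 32 genes, or 62.5%, where it was highest for 28.6% of all genes. This was noticed after the values were seen and is given as a description.

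The adaptor Grb14 had the smallest p in the pathway. It is a docking protein that binds the activated insulin receptor and restrains its kinase. Its values were 6.32, 6.43 and 6.40 in weaned arrays 4, 5 and 12, and 5.83, 6.11, 6.02 and 6.03 in suckling arrays 2, 9, 11 and 12. The lowest weaned array lay above the highest suckling array, and the SD was 0.058 in weaned and 0.12 in suckling mice. The difference was 0.39 (SE 0.11, 95% interval 0.14 to 0.63), a 1.31-fold higher intensity, with an adjusted p of 0.518 in limma. With suckling replicates 2 and 9 left out, the difference was 0.36 (adjusted p = 0.902). Over the 13 alternatives run, its adjusted p ranged from 0.454 to 0.902.

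Its relative Grb10 also binds insulin and IGF receptors and is an imprinted gene. It measured 5.75, 6.08 and 6.36 in weaned arrays and 5.76, 5.60, 5.74 and 6.06 in suckling arrays. The difference was 0.28 (SE 0.17, interval -0.097 to 0.65), and the groups overlapped, with weaned replicate 4 at the level of the suckling arrays. The adjusted p was 0.737. Single arrays moved this difference both ways: it was 0.13 without weaned 12, and without weaned 4 it was 0.43, with no overlap and an unadjusted p under 0.05. With suckling 2 and 9 left out it was 0.17.

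The Akt phosphatases Phlpp1 and Phlpp2 remove the activating phosphate from the hydrophobic motif of Akt. Phlpp1 measured 5.81, 5.63 and 5.10 in weaned arrays 4, 5 and 12, and 4.99, 5.06, 4.92 and 5.28 in suckling arrays. Weaned replicate 12 lay among the suckling values, while the other two weaned arrays lay above them. The difference was 0.45 (SE 0.18, interval 0.052 to 0.84), or 1.36-fold, with an adjusted p of 0.634. The size moved with weaned replicates: it was 0.65 without weaned 12, 0.30 without weaned 4 and 0.39 without weaned 5. With weaned 4 or 5, or suckling 2, 9 or 11 left out, Phlpp1 no longer had an unadjusted p under 0.05, and with suckling 2 and 9 both left out the difference was 0.41. Phlpp2 measured 5.20, 5.28 and 5.71 in weaned arrays and 4.86, 4.87, 4.92 and 5.50 in suckling arrays. Here suckling replicate 12 stood apart from the other three suckling arrays, and the groups overlapped through it alone. The difference was 0.36 (SE 0.19, interval -0.076 to 0.79, adjusted p = 0.703). It was 0.20 without weaned 12 and 0.18 with suckling 2 and 9 left out. Without suckling 12 it was 0.51, with no overlap and an unadjusted p under 0.05.

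**Figure D2:**
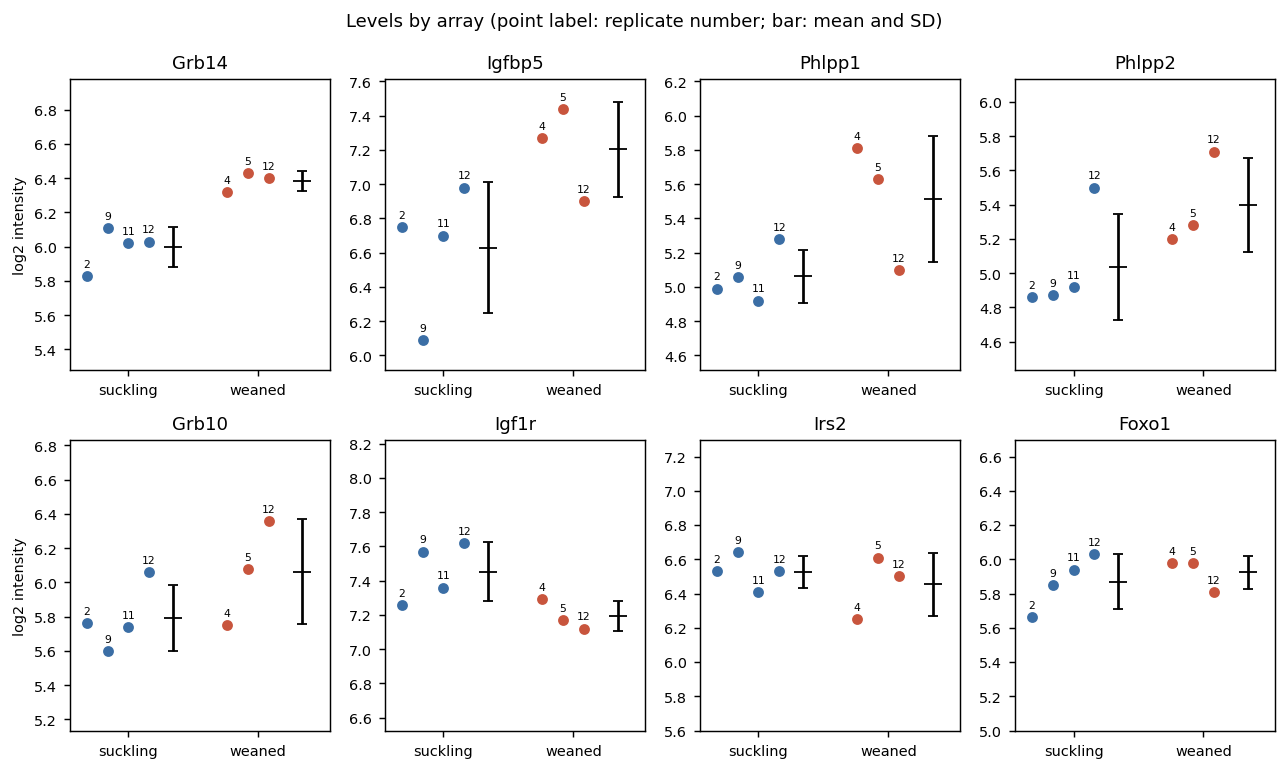
Log2 intensity of 8 pathway genes on each array, with the replicate number above each point and the mean and SD beside each group. Grb14 separates the 3 weaned from the 4 suckling arrays, and in Phlpp1, Phlpp2, Igfbp5, Grb10, Igf1r, Irs2 and Foxo1 the groups overlap.

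The ligands were dim. Igf1, the growth factor made mainly in liver, measured 2.46, 2.75 and 2.89 in weaned and 3.36, 3.02, 2.74 and 2.98 in suckling arrays. Its mean lay under the olfactory receptor level of 3.27 in both groups, so its difference of -0.32 (SE 0.17) is not read as a change of level. Igf2, the fetal growth factor, measured 3.89, 3.71 and 3.82 in weaned and 3.86, 3.93, 4.42 and 3.81 in suckling arrays, a difference of -0.20 (SE 0.16, interval -0.55 to 0.16). Suckling replicate 11 held the highest Igf2 value, and without it the difference was -0.061.

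Of the 7 binding proteins, which hold IGFs outside the cell and lengthen or block their action, 3 had higher and 4 lower means in weaned mice. Igfbp3 and Igfbp6 lay under the olfactory level in both groups, with differences of -0.22 (SE 0.18) and -0.18 (SE 0.13) that are not read as changes of level, and Igfbp1 lay under it in weaned mice. Igfbp5 had the largest difference in the pathway. Its values were 7.27, 7.44 and 6.90 in weaned arrays 4, 5 and 12, and 6.75, 6.09, 6.70 and 6.98 in suckling arrays 2, 9, 11 and 12. Suckling replicate 12 lay above weaned replicate 12, so the groups overlapped. The difference was 0.58 (SE 0.21, interval 0.095 to 1.06), or 1.49-fold, with an adjusted p of 0.618 in limma. It was 0.54 without weaned 4 and 0.46 without weaned 5, where the unadjusted p no longer lay under 0.05. Without suckling 9, the array with the lowest value, it was 0.40, and with suckling 2 and 9 both left out it was 0.37, also with a p above 0.05. Igfbp5 is also made by mesenchymal cells. The mean of 12 mesenchymal markers ran from 3.16 to 3.33 in weaned and from 3.28 to 3.55 in suckling arrays. Of the 12, 7 were dim in both groups, and the part of these cells in the Igfbp5 difference was not tested.

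Igfbp7, which binds IGFs weakly and is abundant in vessel walls, measured 9.07, 9.06 and 9.43 in weaned and 9.12, 9.04, 8.85 and 8.98 in suckling arrays, a difference of 0.19 (SE 0.13, interval -0.10 to 0.49). Weaned replicate 12 was the highest array, the other two weaned arrays lay within the suckling range, and without weaned 12 the difference was 0.071. Igfbp1, the insulin-repressed binding protein of the liver, differed by -0.10 (SE 0.10), Igfbp2 by 0.055 (SE 0.15) and Igfbp4 by -0.063 (SE 0.18). Each of these intervals included 0.

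**Figure D3:**
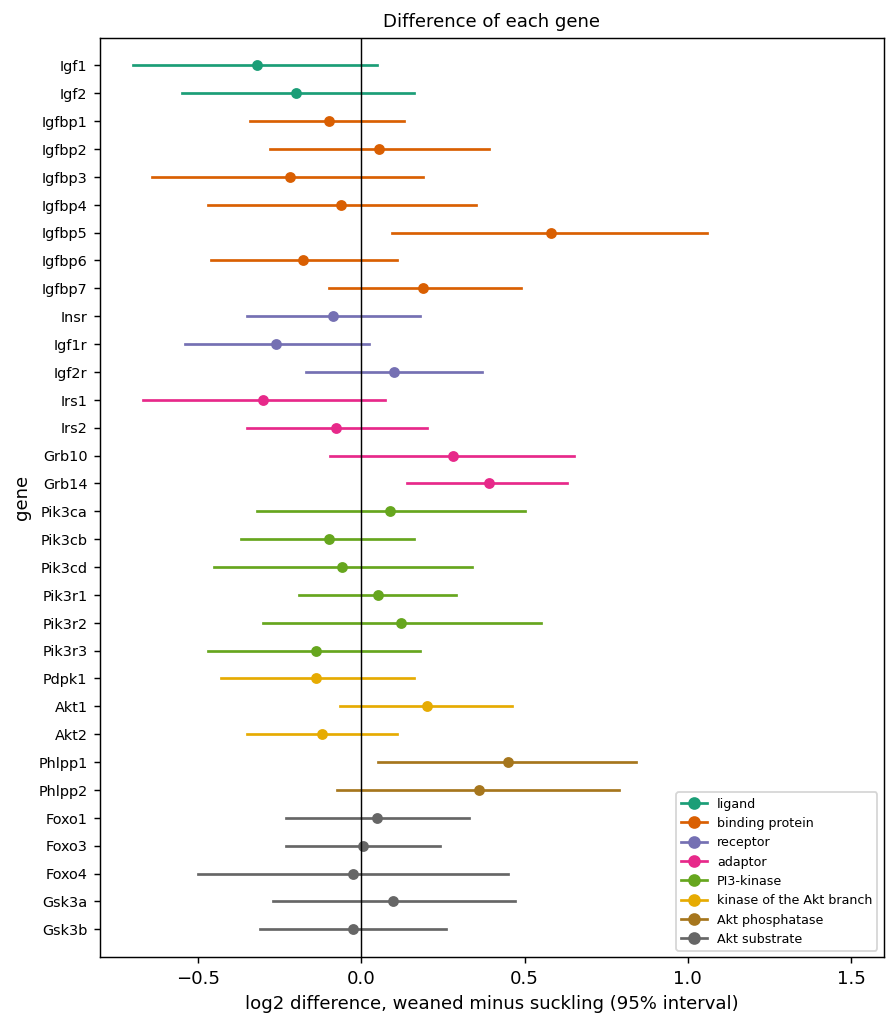
Weaned minus suckling log2 difference of each gene with its 95% interval, in order of role. Grb14, Phlpp1 and Igfbp5 have intervals that exclude 0; all other intervals include 0.

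No receptor had an interval that excluded 0. Insr, the insulin receptor, measured 7.46, 7.37 and 7.47 in weaned and 7.51, 7.40, 7.44 and 7.74 in suckling arrays, a difference of -0.088 (SE 0.12, interval -0.35 to 0.18). The IGF receptor Igf1r, which shares the insulin receptor's signalling chain, had lower values in weaned arrays, 7.29, 7.17 and 7.12, than in suckling arrays, 7.26, 7.57, 7.36 and 7.62. Only suckling replicate 2 lay within the weaned range, and the difference was -0.26 (SE 0.12, interval -0.54 to 0.022, adjusted p = 0.676). Without suckling 2 the groups did not overlap and the unadjusted p was under 0.05. Igf2r, which takes up IGF2 for degradation, differed by 0.10 (SE 0.12, interval -0.17 to 0.37).

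The docking proteins Irs1 and Irs2 carry the signal from both receptors. Irs2, the form that beta cells are known to need, measured 6.25, 6.61 and 6.50 in weaned and 6.53, 6.64, 6.41 and 6.53 in suckling arrays, a difference of -0.078 (SE 0.12, interval -0.35 to 0.20). Irs1 measured 5.56, 5.70 and 5.30 in weaned and 5.54, 5.78, 5.77 and 6.19 in suckling arrays, a difference of -0.30 (SE 0.17, interval -0.67 to 0.071). It was -0.19 without weaned 12 and -0.18 without suckling 12, and without suckling 2 its unadjusted p was under 0.05. Its 2 probe sets pointed in opposite directions. The brighter, which has a RefSeq mRNA among its accessions, gave this -0.30, and the dimmer, which has none, measured 5.98, 5.77 and 5.48 in weaned and 5.25, 5.43, 5.40 and 5.65 in suckling arrays, a difference of 0.31 (SE 0.15, adjusted p = 0.674). The 10 probe sets nearest to the dimmer one in number are all of chromosome 1, where Irs1 lies, but 0 of the 9 with a strand are on the strand of Irs1. Irs1 therefore has no settled direction.

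**Figure D4:**
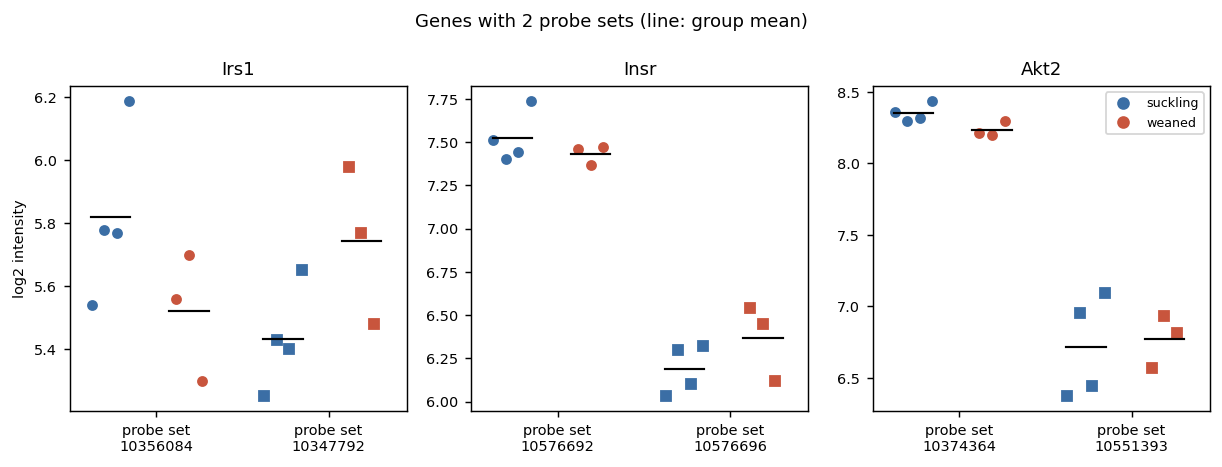
Log2 intensity on each array for both probe sets of Irs1, Insr and Akt2, the 3 genes of the pathway with 2 probe sets. The Irs1 probe sets differ in opposite directions between the groups, and the Insr and Akt2 probe sets overlap between groups.

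Akt2 also has 2 probe sets. The brighter measured 8.21, 8.20 and 8.30 in weaned and 8.36, 8.30, 8.32 and 8.44 in suckling arrays, a difference of -0.12 (SE 0.10), but its 10 nearest neighbours by number are on chromosome 11 and not on chromosome 7, where Akt2 lies. The dimmer, with all 10 neighbours on chromosome 7, differed by 0.054 (SE 0.20). The direction of Akt2 is therefore not settled either. Of the 35 probe sets of the pathway, 34 had most neighbours on their gene's chromosome. The Insr probe sets differed by -0.088 and 0.18 (SE 0.14), and the groups overlapped in both.

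FoxO factors, which Akt inhibits, are known to act on promoters of the pathway's own genes. The core of the insulin response element, through which FoxO factors act on Igfbp1 in liver, reads CAAAACA. It was searched on both strands, where its reverse reads TGTTTTG, in the 250 bases before the start of each gene in RefSeq (GRCm38.p6). It was found in 3 of 45 windows of 30 pathway genes, 6.67%, and in 5.56% of all 32851 windows. The 3 are Igfbp1, Irs1 and Irs2, printed here in the direction of transcription with the core in capitals, together with the window of Grb14, the gene whose groups did not overlap, which holds no such core.
Igfbp1: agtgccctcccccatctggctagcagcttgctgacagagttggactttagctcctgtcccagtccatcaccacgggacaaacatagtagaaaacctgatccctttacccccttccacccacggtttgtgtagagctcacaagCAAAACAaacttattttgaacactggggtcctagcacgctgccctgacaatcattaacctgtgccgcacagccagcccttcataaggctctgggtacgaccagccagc
Irs1: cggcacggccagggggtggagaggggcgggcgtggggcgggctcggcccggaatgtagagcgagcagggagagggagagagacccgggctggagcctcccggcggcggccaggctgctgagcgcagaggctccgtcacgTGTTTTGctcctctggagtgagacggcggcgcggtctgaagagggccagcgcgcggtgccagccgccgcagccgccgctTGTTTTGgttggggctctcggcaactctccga
Irs2: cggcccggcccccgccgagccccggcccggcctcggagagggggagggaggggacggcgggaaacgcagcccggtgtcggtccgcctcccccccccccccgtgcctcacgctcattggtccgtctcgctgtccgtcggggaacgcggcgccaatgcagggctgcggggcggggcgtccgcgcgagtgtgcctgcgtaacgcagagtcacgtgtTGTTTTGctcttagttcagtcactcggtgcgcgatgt
Grb14: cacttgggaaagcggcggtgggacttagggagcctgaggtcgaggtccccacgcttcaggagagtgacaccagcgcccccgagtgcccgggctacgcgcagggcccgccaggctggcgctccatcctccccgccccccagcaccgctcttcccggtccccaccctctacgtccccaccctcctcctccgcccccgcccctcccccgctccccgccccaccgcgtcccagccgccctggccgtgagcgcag
These windows are chr11:7197537-7197786 on the plus strand, and chr1:82291440-82291689, chr8:11008930-11009179 and chr2:65022767-65023016 on the minus strand, each ending at the base before the annotated start. The core lies 108 to 102 bases before the start in Igfbp1, 111 to 105 and 32 to 26 in Irs1, and 37 to 31 in Irs2. A match is a description of letters only. Of these 3 genes none had an interval that excludes 0, and the FoxO binding core GTAAACA, searched on both strands with TGTTTAC as its reverse, was in 1 pathway window, that of Akt1, or 2.22%, beside 3.17% of all windows.

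The 6 PI3-kinase subunits, 3 catalytic (Pik3ca, Pik3cb, Pik3cd) and 3 regulatory (Pik3r1, Pik3r2, Pik3r3), differed by -0.14 to 0.12, with 3 higher and 3 lower in weaned mice and no interval that excluded 0. Pik3r1, the main regulatory subunit, measured 7.24, 7.31 and 7.18 in weaned and 7.09, 7.16, 7.21 and 7.31 in suckling arrays, a difference of 0.051 (SE 0.11, interval -0.19 to 0.29). Pik3ca, the widely expressed catalytic form, differed by 0.089 (SE 0.18), with suckling values from 6.31 to 6.98. Pik3cd, the form of leukocytes, was dim, at 3.27 to 3.75 in weaned arrays, and differed by -0.058 (SE 0.18). Pik3cb differed by -0.10 (SE 0.12), Pik3r2 by 0.12 (SE 0.19) and Pik3r3 by -0.14 (SE 0.14).

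Pdpk1, which phosphorylates Akt in its activation loop, differed by -0.14 (SE 0.13). Akt1 measured 8.15, 8.10 and 7.87 in weaned and 7.80, 7.75, 7.96 and 7.88 in suckling arrays, a difference of 0.20 (SE 0.12, interval -0.065 to 0.46), with weaned replicate 12 within the suckling range and the other two above it. Without weaned 12 its unadjusted p was under 0.05.

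The 5 Akt substrates showed the smallest differences of any role, from -0.027 to 0.098. Foxo1, the FoxO factor best known in beta cells, measured 5.98, 5.98 and 5.81 in weaned and 5.66, 5.85, 5.94 and 6.03 in suckling arrays, a difference of 0.049 (SE 0.12, interval -0.23 to 0.33). Foxo3 differed by 0.0058 (SE 0.11, interval -0.23 to 0.24), Foxo4 by -0.025 (SE 0.21), Gsk3a by 0.098 (SE 0.16) and Gsk3b by -0.027 (SE 0.13). RNA of these substrates does not carry their phosphorylation, through which Akt acts on them.

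Across the pathway, the 95% interval lay within ±0.5 (1.41-fold) for 21 of 32 genes, so a larger difference in any of these lies outside its own interval. For the other genes a larger difference lies within the interval. Among the 21, Igfbp1, Igfbp2 and Igfbp6 lie near or under the olfactory level, so their intervals are not read as limits on a change. The Akt2 interval, also among the 21, is that of the brighter probe set, whose 10 nearest neighbours by number are on chromosome 11.

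A wider list of the pathway, 57 genes measured of 66 listed, had 4 genes at an unadjusted p under 0.05. This is 7.02%, beside 7.58% of all genes in either direction. All 4 were higher in weaned mice, where the all-gene share is 4.39%. These shares rest on 4 genes and are not read as different from the background. None of the 57 passed the adjusted threshold in limma, and their median difference was 0.034. Adaptors and phosphatases had 13 higher and 6 lower means, Ras and other kinases 7 and 4, and proteins of IGF availability 5 and 5. FoxO targets and factors had 13 higher and 4 lower, with a median difference of 0.054, beside 0.00047 over all genes. The share of higher means over all genes is not given here, so these counts are a description. Grb2, the adaptor between receptors and Ras, measured 6.20, 6.43 and 6.21 in weaned and 6.01, 5.89, 6.04 and 6.05 in suckling arrays, with no overlap and a difference of 0.28 (SE 0.11, adjusted p = 0.634). Sgk1, a kinase related to Akt and also activated by Pdpk1, measured 3.94, 4.49 and 4.29 in weaned and 3.36, 4.04, 4.05 and 3.76 in suckling arrays, which overlap, and differed by 0.44 (SE 0.20, adjusted p = 0.653). Bcl2l11, which encodes the cell death protein Bim and is a known FoxO target, measured 4.78, 5.28 and 4.89 in weaned and 4.46, 4.34, 4.61 and 4.76 in suckling arrays, a difference of 0.44 (SE 0.15, adjusted p = 0.591). The groups did not overlap in Bcl2l11. Foxo6, itself a FoxO factor, measured 4.36, 4.62 and 4.30 in weaned and 4.03, 4.21, 4.01 and 4.10 in suckling arrays, without overlap, and differed by 0.34 (SE 0.12, adjusted p = 0.592). Over all genes, 7.32% did not overlap in either direction and 3.90% in the higher direction. Genes without overlap were not counted over the 57. In the list of IGF availability, the smallest p belonged to Igfbpl1, at -0.32 (SE 0.17), and Pappa, a protease that frees IGF, at -0.27 (SE 0.14). The Igfbpl1 means, 3.08 in suckling and 2.75 in weaned mice, lie under the olfactory level, so its difference is not read as a change of level.

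**Figure D5:**
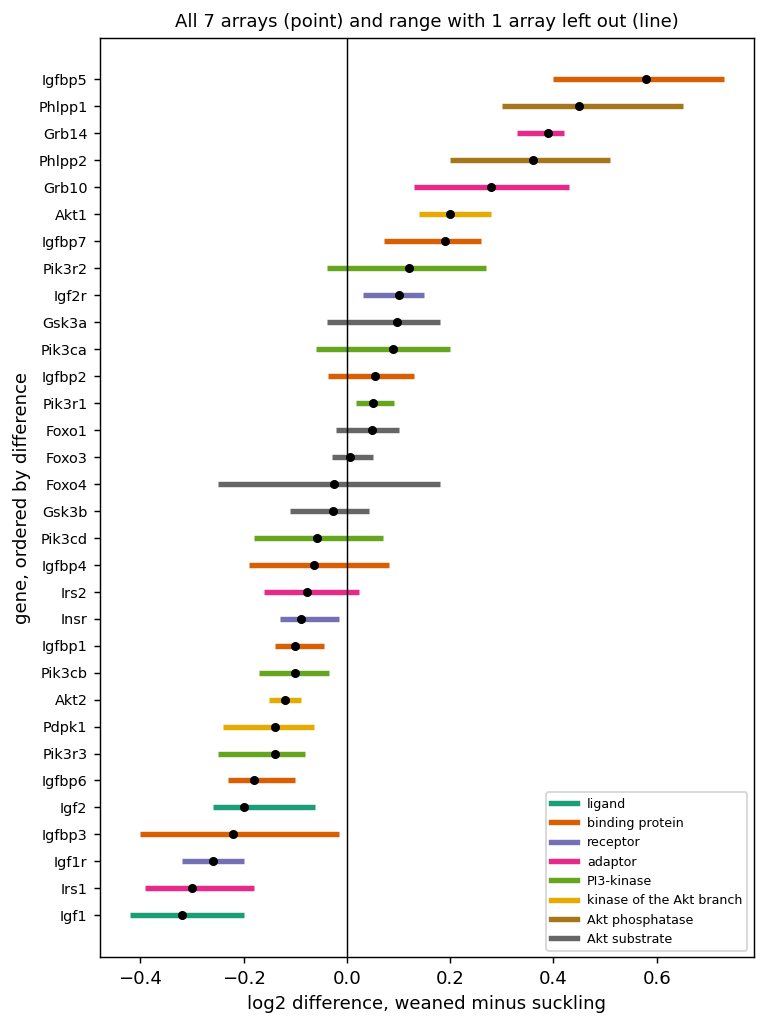
Weaned minus suckling log2 difference of each pathway gene, ordered by size, with all 7 arrays (point) and its range with 1 array left out (line, coloured by role). Grb14 ranges from 0.33 to 0.42, and Phlpp1 reaches 0.65 when weaned replicate 12 is left out.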

How the data were processed

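RNA of YFP+ cells sorted from 1 mouse per array was amplified (Ovation Pico) after extraction on RNeasy micro columns, per the labels' protocols. The deposited values are linear intensities that the authors made in Partek 6.6 by RMA, as the submitters' processing notes name them; settings are not given in the sources used here. Log2 was taken of these deposited intensities. Of 35556 probe sets, 21789 carry 1 gene symbol, 1621 several and 12146 none in the platform annotation, which can be old; 21698 were matched to RefSeq by gene ID. The brightest probe set stood for each of 19938 genes. Weaned and suckling arrays were compared with limma 3.58.1 in R 4.3.3 (lmFit, eBayes), with Benjamini-Hochberg adjustment over all genes; the script was checked on simulated data. The number of arrays, 3 against 4, limits the precision, and array medians ran from 14.1 to 14.9 in intensity. The members and all gene lists were chosen with earlier results of these data known. All members are named. Of each wider pathway list, genes at unadjusted p under 0.05 (at most 4), or else the 2 with the smallest p, are named. Of each marker list, at most 3 defining markers are named, with those whose groups did not overlap. Alternatives were quantile normalization, median centring, the mean of probe sets, a filter on dim genes, a trended robust prior, suckling replicates 2 and 9 left out together, and each array left out in turn. Promoter windows and gene neighbours come from RefSeq tables of GRCm38.p6.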

Additional observations from a re-analysis of the deposited data

Results flagged for a closer look

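In the suckling group, the Phlpp2 value of replicate 12, 5.50, stood apart from those of replicates 2, 9 and 11, which ran from 4.86 to 4.92. Its gap to the nearest of the others was 0.907 of the group's range, above Dixon's 95% critical value for 4 arrays. All 32 genes were examined this way in the suckling group and 1 passed; chance alone passes about 1 group in 20. The weaned group, with 3 arrays, was not examined.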

How the results depend on the processing

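Over 13 alternatives, 0 of the 32 genes reached an adjusted p of 0.05 in limma, and the lowest adjusted p was 0.454; 17 genes kept their sign in all 13, Igf1 kept it in the 12 it was part of, and 14 genes changed it in at least 1. Grb14 kept an unadjusted p under 0.05 in all 13, Igfbp5 in 10 and Phlpp1 in 7. Genes at an unadjusted p under 0.05 numbered 5 after quantile normalization, beside 8.18% of all genes. With 1 array left out they numbered 1 to 4, beside 5.87% to 7.78% of all genes. Genes whose groups did not overlap numbered 3 after quantile normalization (8.28% of all genes) and 2 after centring (7.77% of all genes). They numbered 9 with suckling replicates 2 and 9 left out, where 19.4% of all genes did not overlap. With 1 array left out they numbered 1 to 5, beside 10.3% to 16.5% of all genes. In the wider pathway list of 57 genes, those at an unadjusted p under 0.05 numbered 2 with suckling 2 and 9 left out, beside 5.46% of all genes. They numbered 2 to 7 with 1 array left out, beside the 5.87% to 7.78% of all genes. Signs turned after quantile normalization for Foxo1 (-0.0048) and Foxo3 (-0.033), after centring for Foxo3 (-0.014), and with the mean of probe sets for Insr (0.047) and Irs1 (0.0031). For Irs1 that mean takes in the dimmer probe set, which has no RefSeq mRNA among its accessions. With suckling 2 and 9 left out, signs turned for Igfbp4 (0.052), Pik3cd (0.028), Pik3r1 (-0.016), Pik3r2 (-0.092), Foxo1 (-0.067), Foxo3 (-0.011), Foxo4 (0.068) and Gsk3a (-0.053). The cause was not tested. With 1 array left out, differences that changed sign ranged from -0.16 to 0.024 for Irs2, -0.059 to 0.20 for Pik3ca, -0.039 to 0.27 for Pik3r2, -0.036 to 0.13 for Igfbp2, -0.18 to 0.07 for Pik3cd, -0.028 to 0.051 for Foxo3, -0.25 to 0.18 for Foxo4, -0.19 to 0.082 for Igfbp4, -0.021 to 0.10 for Foxo1, -0.039 to 0.18 for Gsk3a and -0.11 to 0.042 for Gsk3b. The filter on dim genes left out Igf1 alone of the 32. No paired analysis was possible because the groups share only the replicate number 12. Signal near the olfactory receptor level limits what can be read for Igf1, Igfbp1, Igfbp2, Igfbp3 and Igfbp6.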

Other observations

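The 4 genes that restrain the pathway at the receptor or at Akt, Grb10, Grb14, Phlpp1 and Phlpp2, all had higher means in weaned mice. They were grouped after their values were seen, so no test is given. Their mean log2 intensity was 5.77, 5.86 and 5.89 in weaned arrays 4, 5 and 12, and 5.36, 5.41, 5.40 and 5.72 in suckling arrays 2, 9, 11 and 12, a difference of 0.37. Suckling replicate 12 was nearest to the weaned arrays. The 4 genes that carry the signal in, Insr, Igf1r, Irs1 and Irs2, all had lower means in weaned mice on their brightest probe sets, with a mean of 6.64, 6.71 and 6.60 in weaned and 6.71, 6.85, 6.75 and 7.02 in suckling arrays, a difference of -0.18. With the mean over each gene's probe sets, this difference was -0.072, and 2 of the 4 were higher. That mean takes in the dimmer Irs1 probe set, which has no RefSeq mRNA among its accessions, and Irs1 has no settled direction. Insr, Igf1r, Irs1 and Irs2 were also grouped after their values were seen. In the wider list of adaptors and phosphatases, 13 means were higher and 6 lower, with a median difference of 0.027. The share of higher means over all genes is not given here, so these counts are a description.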
